A study of Mus musculus with 20 samples.

Results

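The response of the kidney to adriamycin (ADR, doxorubicin, a drug that injures podocytes) was compared between mice without telomerase reverse transcriptase (TERT KO/KO) and their wild type littermates (TERT WT/WT). The comparison took 12 of the 20 RNA-seq libraries of the series, each from 1 whole kidney. Of these, 2 came from TERT KO/KO ADR mice (replicates 1 and 3), 3 from TERT KO/KO saline mice, 3 from TERT WT/WT ADR mice and 4 from TERT WT/WT saline mice. All were females of 2 months on a Balb/c background. The knockout is constitutive, and the TERT KO/KO mice were of the first generation without the gene. Each mouse had 1 intravenous injection of ADR at 12 mg/kg or of saline, and kidneys were taken 18 days later. The quantity described is the genotype difference in the ADR effect. It is the log2 change with ADR over saline in TERT KO/KO mice, minus the same change in TERT WT/WT mice, so that a positive value means a higher response in TERT KO/KO mice. All 19023 genes that passed a filter on low counts were tested. Replicate 2 of the TERT KO/KO ADR group was left out because Alb, which encodes serum albumin made by the liver, took 26.1% of its counts.

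Podocytes are the epithelial cells that wrap the glomerular capillaries and hold back protein, and doxorubicin damages them in Balb/c mice. Their loss lets protein into the urine, and tubule injury, entry of leukocytes and scarring follow. Telomerase adds repeats to chromosome ends, and its protein subunit has also been linked to gene regulation apart from telomeres. The comparison asks whether deletion of the subunit changes which genes respond to the injury.

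The 12 libraries had 39323498 to 48222237 counts, with a median of 45453558.5, and 23695 to 25991 genes with a count. Kidney identity was clear in all of them, since the proximal tubule marker Slc34a1 had at least 37485 counts, Umod of the thick limb at least 63009 and Nphs1 of podocytes at least 167. Alb reached 82.9 CPM (counts scaled to a common library size) in TERT KO/KO saline replicate 1 and had a median of 13.01 CPM over the 12 libraries. The adrenal gene Cyp11b1 had no count. The deleted gene, Tert, was counted in every library, with 210 and 105 counts in TERT KO/KO ADR kidneys, 51 to 132 in TERT KO/KO saline kidneys, 164 to 379 in TERT WT/WT ADR kidneys and 122 to 187 in TERT WT/WT saline kidneys. These are counts over the whole gene, and the part deleted is not named in the sources used here, so they do not check the genotype. The genotype difference of Tert was 0.01 (SE 0.47, adjusted p = 0.997 from edgeR), with a 95% interval of -1.07 to 1.09.

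Most genes called with ADR in TERT WT/WT mice moved the same way in TERT KO/KO mice, though few were called in both. No single gene passed the test of the difference between the genotypes. ADR changed 1001 genes in TERT KO/KO mice (5.26% of those tested, with 729 or 3.83% higher and 272 or 1.43% lower) and 5164 in TERT WT/WT mice (27.1%, with 2883 or 15.2% higher and 2281 or 12% lower). Of 732 genes changed in both, 728 went the same way. Another 4432 were called in TERT WT/WT mice alone and 269 in TERT KO/KO mice alone, and the TERT KO/KO groups held fewer kidneys. Of the genes called in TERT WT/WT mice, 87.0% had a TERT KO/KO effect of the same sign. Where a gene rose in TERT WT/WT mice, the median ADR effect was 0.70 in TERT KO/KO and 1.30 in TERT WT/WT mice on the log2 scale, and where it fell the median was -0.30 in TERT KO/KO and -0.64 in TERT WT/WT mice. The TERT WT/WT calls chose these genes, so the smaller TERT KO/KO values are a description only. Over all genes tested, the difference had a median of -0.01 and a median standard error of 0.31. With edgeR's quasi-likelihood test 0 genes passed an adjusted p of 0.05, which is 0% of those tested, and the smallest adjusted p was 0.0716. At an unadjusted p under 0.05 there were 1204 genes with a higher and 1084 with a lower difference, 12% of those tested (6.33% and 5.7%). DESeq2 called 73 higher and 54 lower, and voom of limma, weighted by library quality, called 9 higher and 0 lower. The genes named below are therefore differences that did not pass the edgeR test. Counts at an unadjusted p over the 12 libraries are to be read against these background shares. The gene lists described below were chosen with earlier results of these data known, so a share above the background is a description only.

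**Figure D1:**
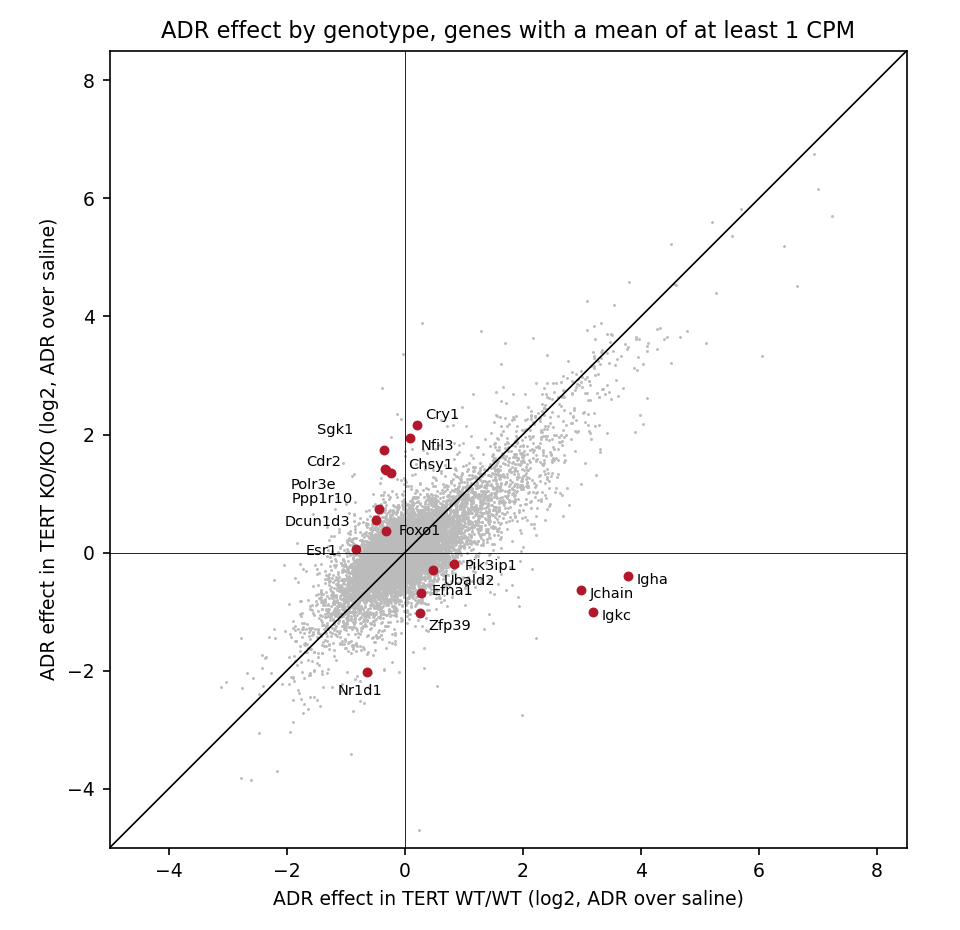
ADR effect in TERT KO/KO mice (vertical, log2 of ADR over saline) against the same effect in TERT WT/WT mice (horizontal), with 1 point per gene of at least 1 CPM on average and the diagonal marking equal effects. Red points are named genes among those with the smallest p of the difference in each direction and those called between genotypes after ADR; Igha, Igkc and Jchain lie far below the diagonal, while Cry1, Nfil3 and Sgk1 lie above it.

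The mice did not respond to an equal degree. Over all genes, the SD of a kidney's log2 levels around the saline mean of its own genotype was 0.717 and 0.855 in TERT KO/KO ADR replicates 1 and 3, and 0.580, 1.07 and 1.02 in TERT WT/WT ADR replicates 1, 2 and 3. It was 0.252 to 0.337 in the 7 saline kidneys. Genes above the saline mean by more than 1 on the log2 scale numbered 1171 and 1940 in the TERT KO/KO ADR kidneys, and 1240, 2941 and 2639 in the TERT WT/WT ADR kidneys. Genes below it by as much numbered 1103 and 1207 in the TERT KO/KO ADR kidneys, and 335, 1660 and 1711 in the TERT WT/WT ADR kidneys. TERT WT/WT ADR replicate 1 thus had the lowest SD and the fewest genes below the mean, but more genes above it than TERT KO/KO ADR replicate 1. The number of genes called for the difference turned on this kidney. Without it 210 genes passed with a higher and 115 with a lower difference (1.11% and 0.606% of those tested in that fit). Leaving out TERT WT/WT ADR replicate 3 gave 28 higher and 4 lower, and leaving out TERT WT/WT ADR replicate 2 gave 1 in each direction. Leaving out TERT KO/KO ADR replicate 3 gave 4 higher and 0 lower, but with 1 kidney left in that group the fit assumes that it varies like the other groups, and the same holds without replicate 1. Each other library left out gave 0.

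Gene lists showed where the kidneys parted. Mitosis genes had a median log2 response of 2.16 and 3.34 in TERT KO/KO ADR replicates 1 and 3, and 2.11, 3.63 and 3.08 in TERT WT/WT ADR replicates 1, 2 and 3, so that both genotypes overlapped. Proximal tubule genes stood at -0.61 and -1.05 in TERT KO/KO ADR replicates 1 and 3, and -0.35, -1.64 and -1.79 in TERT WT/WT ADR replicates 1, 2 and 3, with TERT WT/WT ADR replicate 1 nearest to 0. TERT KO/KO ADR replicate 1 stood apart in several immune lists. It had medians of -0.22 for MHC class II genes and -0.32 for interferon-stimulated genes, against 2.41 and 1.22 in TERT KO/KO ADR replicate 3. For neutrophil genes it had the highest median, at 2.32 against 0.85 to 1.75 in the other ADR kidneys. Means of the TERT KO/KO ADR group for these lists thus average unlike kidneys. In RNA of whole kidneys, fewer cells of a type and less RNA per cell cannot be told apart.

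**Figure D2:**
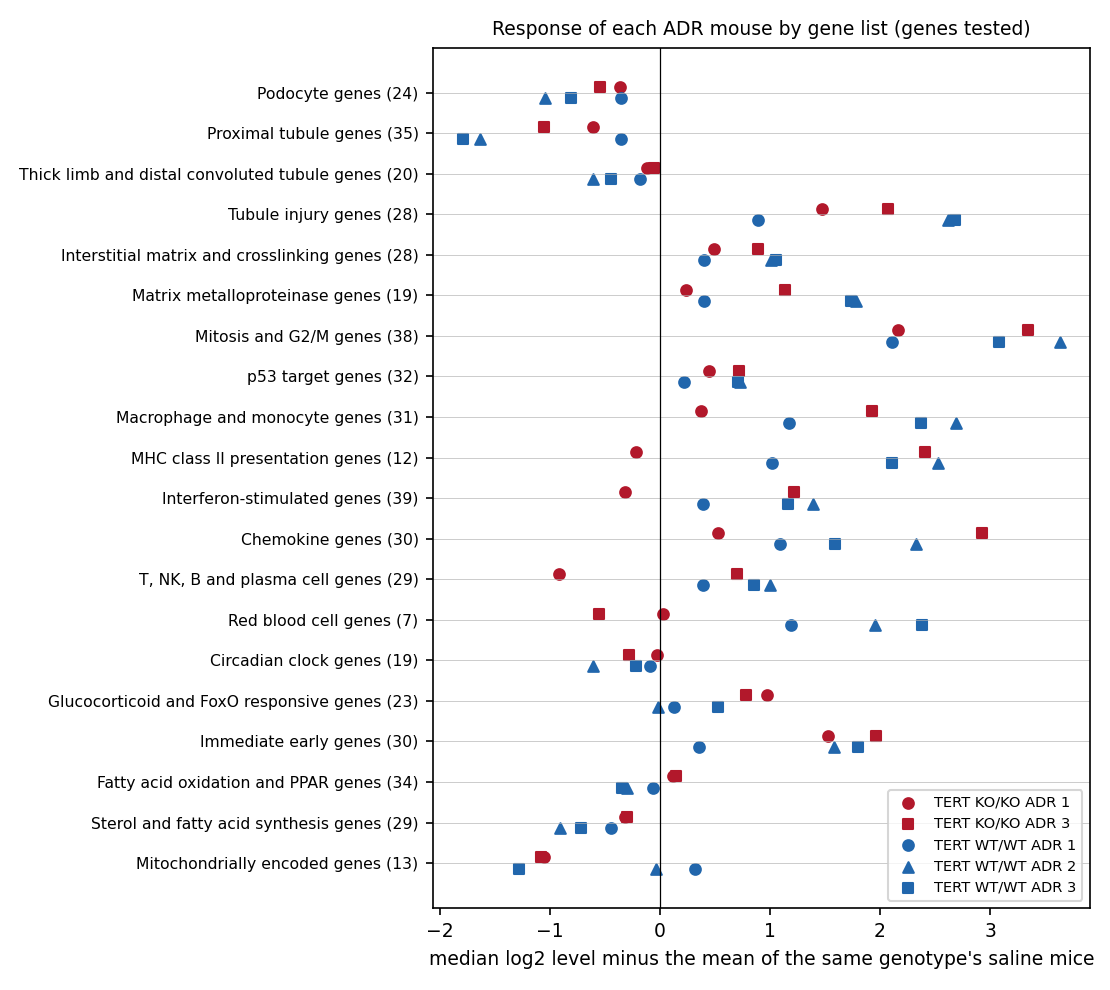
Median log2 level of each gene list in each ADR kidney minus the mean of the saline kidneys of the same genotype, with the number of genes tested in brackets. Red cell genes separate the genotypes (0.03 and -0.56 in TERT KO/KO, against 1.19 to 2.38 in TERT WT/WT kidneys), whereas the mitosis, injury and matrix lists overlap.

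Genes of the circadian clock, the transcription loop that gives cells a daily rhythm, were prominent among the largest differences. Of 19 clock genes tested, 5 had a higher and 4 a lower difference at an unadjusted p under 0.05 (47.4%, against 12% of all genes), and 0 passed the adjusted test. The list was chosen with earlier results of these data known, so its share is a description only. Nr1d1, a nuclear receptor (REV-ERB alpha) that represses the loop's activators, had 53.4 and 51.3 CPM in the TERT KO/KO ADR kidneys, against 214, 237 and 185 CPM in TERT KO/KO saline kidneys, and 192, 135 and 120.2 CPM in the TERT WT/WT ADR kidneys, against 231, 218, 240.3 and 239 CPM in TERT WT/WT saline kidneys. Both TERT KO/KO ADR kidneys lay below every other kidney. The ADR effect was -2.02 in TERT KO/KO and -0.64 in TERT WT/WT mice, both past the test, and the difference was -1.38 (SE 0.24, adjusted p = 0.118 from edgeR). Dbp, a clock output factor, had 132 and 89.4 CPM in the TERT KO/KO ADR kidneys, against 308, 287 and 312 CPM in TERT KO/KO saline kidneys, and 291, 121 and 115 CPM in the TERT WT/WT ADR kidneys, against 258, 227, 246 and 243 CPM in TERT WT/WT saline kidneys. The TERT KO/KO ADR values overlapped those of TERT WT/WT ADR replicates 2 and 3, and the difference was -0.98 (SE 0.43, adjusted p = 0.391 from edgeR). Without TERT WT/WT ADR replicate 1, the difference of Dbp was -0.41 (adjusted p = 0.266). Bhlhe41, a repressor of the loop, fell with ADR in TERT KO/KO mice, to 7.62 and 6.03 CPM in TERT KO/KO ADR kidneys, against 10.8 to 12.0 CPM in TERT KO/KO saline kidneys, with a difference of -0.80 (SE 0.19, adjusted p = 0.265 from edgeR).

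The clock genes Cry1, Nfil3, Per1 and Per2 were higher in the same 2 kidneys. Cry1, a repressor of CLOCK and BMAL1, had 20.6 and 12.4 CPM in the TERT KO/KO ADR kidneys, against 4.34, 2.84 and 3.90 CPM in TERT KO/KO saline kidneys, and 3.36, 3.85 and 6.27 CPM in the TERT WT/WT ADR kidneys, against 3.36, 3.76, 4.89 and 3.58 CPM in TERT WT/WT saline kidneys. Both TERT KO/KO ADR kidneys were above all others, and the difference was 1.95 (SE 0.39, adjusted p = 0.171 from edgeR). Nfil3, a repressor that competes with DBP, had 18.6 and 17.7 CPM in the TERT KO/KO ADR kidneys, against 5.41, 3.01 and 5.67 CPM in TERT KO/KO saline kidneys, and 5.22, 6.44 and 7.46 CPM in the TERT WT/WT ADR kidneys, against 5.63, 6.18, 5.86 and 6.30 CPM in TERT WT/WT saline kidneys. Here too the TERT KO/KO ADR kidneys did not overlap any other, and the difference was 1.86 (SE 0.30, adjusted p = 0.0926 from edgeR). Per1 had 128 and 118 CPM in the TERT KO/KO ADR kidneys, against 32.1 to 43.8 CPM in TERT KO/KO saline kidneys, and 38.2, 26.6 and 85.3 CPM in TERT WT/WT ADR kidneys, against 43.2 to 57.5 CPM in TERT WT/WT saline kidneys. Per2 had 78.5 and 58.6 CPM in TERT KO/KO ADR kidneys, against 33.0 to 47.3 CPM in TERT KO/KO saline kidneys. The differences of these period genes, which encode repressors of the loop, were 1.63 (SE 0.47, adjusted p = 0.299 from edgeR) and 1.13 (SE 0.29, adjusted p = 0.265 from edgeR). Levels of clock genes vary over the day, and the hours at which the kidneys were taken are not given in the sources used here.

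The promoters of Cry1, Per1 and Nr1d1 are shown because these clock genes differed together, in opposite directions. They are RefSeq sequences of GRCm38.p6, from 250 bases before to 50 after the start site, at chr10:85185005-85185304 (minus strand), chr11:69098699-69098998 (plus strand, the upstream start of 2 listed) and chr11:98775328-98775627 (minus strand). Capitals mark CACGTG, the E-box bound by CLOCK and BMAL1, searched on both strands.
Cry1: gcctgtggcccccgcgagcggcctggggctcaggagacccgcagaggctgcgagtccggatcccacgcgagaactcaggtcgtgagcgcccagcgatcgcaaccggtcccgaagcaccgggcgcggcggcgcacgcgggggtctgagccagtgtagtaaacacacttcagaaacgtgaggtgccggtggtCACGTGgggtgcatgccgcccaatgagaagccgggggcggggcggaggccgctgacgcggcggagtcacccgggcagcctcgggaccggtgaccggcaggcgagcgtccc
Per1: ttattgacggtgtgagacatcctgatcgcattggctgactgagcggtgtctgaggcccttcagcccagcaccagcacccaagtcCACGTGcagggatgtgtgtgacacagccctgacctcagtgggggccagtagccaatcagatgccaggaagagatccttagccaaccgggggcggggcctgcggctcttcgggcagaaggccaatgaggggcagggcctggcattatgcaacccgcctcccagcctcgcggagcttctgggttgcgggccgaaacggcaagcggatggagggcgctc
Nr1d1: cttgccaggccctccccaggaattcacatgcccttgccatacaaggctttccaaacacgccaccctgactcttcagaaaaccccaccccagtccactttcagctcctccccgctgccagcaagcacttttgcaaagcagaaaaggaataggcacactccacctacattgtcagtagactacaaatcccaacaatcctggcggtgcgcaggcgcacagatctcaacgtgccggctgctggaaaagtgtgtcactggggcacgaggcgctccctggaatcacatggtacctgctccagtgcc
The Cry1 and upstream Per1 windows each held 1 such E-box, which began 60 and 166 bases before the start, and the Nr1d1 window held none. RefSeq promoters were matched for 12826 of the genes tested, and 9.11% of their 16308 windows held CACGTG. Of 21 windows of 16 matched clock genes, 6 held it (28.6%). Of 17 windows of 10 matched genes among the 14 called between genotypes after ADR, 3 held it (17.6%). They belonged to Cry1, Polr3e and Sgk1, the last with 6 windows of which 1 held it. Matches are letters in a window and were not tested as binding sites. The AP-1 motif TGANTCA, the short NF-kB motif GGAANTTCC and the motif TTTGAA of cell cycle genes, also searched on both strands, were each in 0 of the 21 clock windows, against 5.83%, 1.03% and 12.7% of all windows.

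Several genes that respond to glucocorticoids or to FoxO factors, which act when insulin signalling is low, were high in the same 2 kidneys. In this list of 23 genes, 9 had a higher and 3 a lower difference at an unadjusted p under 0.05, with a median of 0.55 against -0.01 over all genes. That median ran from 0.22 without TERT KO/KO ADR replicate 1 to 0.73 without TERT KO/KO ADR replicate 3. Sgk1, a kinase that raises sodium transport, had 216 and 225 CPM in the TERT KO/KO ADR kidneys, against 70.2, 69.2 and 59.9 CPM in TERT KO/KO saline kidneys, and 67.0, 30.2 and 75.1 CPM in the TERT WT/WT ADR kidneys, against 61.8, 72.0, 84.1 and 75.4 CPM in TERT WT/WT saline kidneys. The TERT KO/KO ADR kidneys were far above all others, and the difference was 2.08 (SE 0.37, adjusted p = 0.118 from edgeR). Tsc22d3 (GILZ), a glucocorticoid-induced leucine zipper protein, had 116 and 88.1 CPM in the TERT KO/KO ADR kidneys, against 31.7, 20.8 and 26.2 CPM in TERT KO/KO saline kidneys, and 22.3, 16.6 and 46.4 CPM in the TERT WT/WT ADR kidneys, against 28.8, 31.0, 41.7 and 32.8 CPM in TERT WT/WT saline kidneys. Its lowest TERT KO/KO ADR value was above every other kidney, with a difference of 2.19 (SE 0.45, adjusted p = 0.205 from edgeR). Noct (nocturnin), a phosphatase with a daily rhythm, had 34.6 and 42.7 CPM in TERT KO/KO ADR kidneys, against 11.2 to 11.8 CPM in TERT KO/KO saline kidneys, and 12.7 to 24.1 CPM in TERT WT/WT ADR kidneys, against 15.1 to 15.8 CPM in TERT WT/WT saline kidneys, a difference of 1.44 (SE 0.26, adjusted p = 0.137 from edgeR). Foxo3, itself a FoxO factor, had 141 and 139 CPM in TERT KO/KO ADR kidneys, against 65.4 to 78.8 CPM in TERT KO/KO saline kidneys. It had 76.2, 70.1 and 109 CPM in TERT WT/WT ADR kidneys, against 85.2 to 117 CPM in TERT WT/WT saline kidneys. Its difference was 1.20 (SE 0.24, adjusted p = 0.171 from edgeR), and all TERT KO/KO saline kidneys were below all TERT WT/WT saline kidneys. Fkbp5, a chaperone of the glucocorticoid receptor, rose with ADR in both genotypes, by 2.80 in TERT KO/KO and 1.66 in TERT WT/WT mice. Its ADR responses overlapped between genotypes, and the difference was 1.15 (SE 0.54, adjusted p = 0.425 from edgeR).

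Immediate early genes, which are transcribed within minutes of a stimulus, differed in both directions. Of 30 tested, 6 had a higher and 2 a lower difference at an unadjusted p under 0.05, and the median was 0.40, running from 0.05 without TERT WT/WT ADR replicate 1 to 0.56 without TERT WT/WT ADR replicate 3. The orphan nuclear receptor Nr4a3 had 2.13 and 1.35 CPM in TERT KO/KO ADR kidneys, against 0.255 to 0.304 CPM in TERT KO/KO saline kidneys, and 0.405 to 1.02 CPM in TERT WT/WT ADR kidneys, against 0.470 to 0.620 CPM in TERT WT/WT saline kidneys. Its difference was 2.25 (SE 0.52, adjusted p = 0.265 from edgeR). Klf10, an early response gene of TGF-beta, went the other way, at 15.3 and 15.0 CPM in TERT KO/KO ADR kidneys, against 13.1 to 18.9 CPM in TERT KO/KO saline kidneys, and 18.5, 39.1 and 34.7 CPM in TERT WT/WT ADR kidneys, against 9.54 to 15.9 CPM in TERT WT/WT saline kidneys. Klf10 had a difference of -1.45 (SE 0.39, adjusted p = 0.277 from edgeR), and its ADR effect passed the test in TERT WT/WT mice alone.

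**Figure D3:**
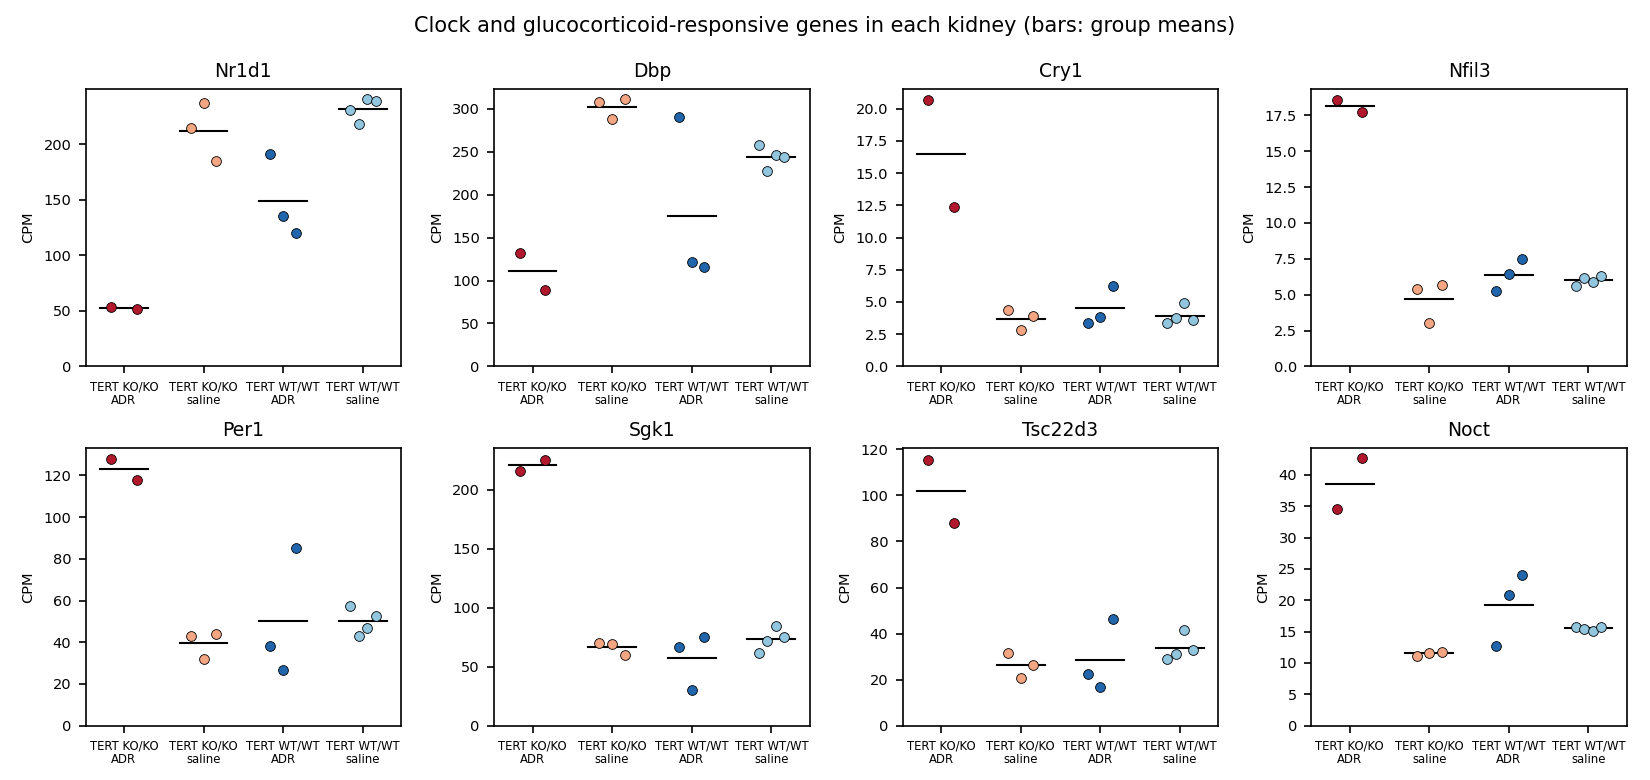
CPM of clock and glucocorticoid-responsive genes in each of the 12 kidneys, with 1 point per kidney and a bar at the group mean. In TERT KO/KO ADR kidneys Nr1d1 (53.4 and 51.3 CPM) was below and Sgk1 (216 and 225 CPM) above all other kidneys, whereas Dbp in the same kidneys overlapped TERT WT/WT ADR replicates 2 and 3.

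Among the genes with the smallest p of a higher difference were Cdr2, Polr3e, Ppp1r10, Dcun1d3 and Chsy1, each at an adjusted p of 0.0716 and so not past the test. Cdr2, the antigen of a paraneoplastic cerebellar degeneration, had 187 and 114 CPM in the TERT KO/KO ADR kidneys, against 60.6, 49.0 and 58.7 CPM in TERT KO/KO saline kidneys, and 48.5, 47.1 and 61.4 CPM in the TERT WT/WT ADR kidneys, against 61.9, 64.5, 69.4 and 67.8 CPM in TERT WT/WT saline kidneys. Polr3e, a subunit of RNA polymerase III, had 96.7 and 68.2 CPM in the TERT KO/KO ADR kidneys, against 33.9, 27.9 and 32.0 CPM in TERT KO/KO saline kidneys, and 28.3, 22.7 and 36.4 CPM in the TERT WT/WT ADR kidneys, against 38.4, 34.2, 36.6 and 35.5 CPM in TERT WT/WT saline kidneys. Both genes were higher in the 2 TERT KO/KO ADR kidneys than in all other kidneys, and replicate 1 was the higher of the pair. Their differences were 1.76 (SE 0.25) and 1.71 (SE 0.24). They are neighbours on chromosome 7 of GRCm38, transcribed towards each other (Polr3e at chr7:120917744-120947432 on the plus strand, Cdr2 at chr7:120957036-120982312 on the minus strand). In the flanking genes the difference was -0.32 for Eef2k, 0.13 for Mettl9, -0.37 for Vwa3a and 0.89 for Mfsd13b, with the smallest unadjusted p at 0.152. Strand use in counting is not stated in the sources used here, so reads past the end of one gene into the other were not told apart. Without TERT KO/KO ADR replicate 1 the difference of Cdr2 was 1.34 and that of Polr3e 1.42, and without replicate 3 they were 2.07 and 1.94.

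Chsy1, Ppp1r10 and Dcun1d3 had a TERT KO/KO effect above 0 and a TERT WT/WT effect below it. Chsy1, a chondroitin sulfate synthase, had 20.5 and 22.8 CPM in TERT KO/KO ADR kidneys, against 7.88 to 9.50 CPM in TERT KO/KO saline kidneys, and 8.99 to 13.8 CPM in TERT WT/WT ADR kidneys, against 10.8 to 14.6 CPM in TERT WT/WT saline kidneys. Part of the Chsy1 difference of 1.57 (SE 0.24) thus lay between the saline groups, at -0.64 for TERT KO/KO over TERT WT/WT. The 4 genes called in opposite directions by the ADR effects were Ppp1r10, Dcun1d3, Rnf169 and Rbm14. Ppp1r10, a nuclear targeting subunit of protein phosphatase 1, rose by 0.74 in TERT KO/KO mice and fell by 0.43 in TERT WT/WT mice on the log2 scale. Dcun1d3, which promotes neddylation of cullins, had effects of 0.55 in TERT KO/KO and -0.48 in TERT WT/WT mice. Rnf169, a ubiquitin-binding protein at DNA breaks, had effects of 0.59 in TERT KO/KO and -0.33 in TERT WT/WT mice. Rbm14, an RNA-binding protein of paraspeckles, had effects of 0.61 in TERT KO/KO and -0.35 in TERT WT/WT mice. As genotype differences, these genes had 1.17, 1.03, 0.92 and 0.95, with adjusted p values of 0.0716, 0.0716, 0.0916 and 0.14 from edgeR. TERT KO/KO saline kidneys were below TERT WT/WT saline kidneys in all 4.

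Among lower differences, those with the smallest p were Zfp39, Nr1d1, Igkc, Efna1, Pik3ip1 and Ubald2. Efna1, the Eph receptor ligand ephrin A1, had 29.3 and 23.3 CPM in the TERT KO/KO ADR kidneys, against 41.7, 42.1 and 42.8 CPM in TERT KO/KO saline kidneys, and 40.6, 44.7 and 36.1 CPM in the TERT WT/WT ADR kidneys, against 37.4, 34.0, 31.0 and 31.2 CPM in TERT WT/WT saline kidneys. Its TERT KO/KO ADR kidneys were below all others, and the difference was -0.96 (SE 0.18, adjusted p = 0.137 from edgeR). Pik3ip1, an inhibitor of PI3-kinase, had 9.79 and 11.4 CPM in the TERT KO/KO ADR kidneys, against 10.8, 12.5 and 12.99 CPM in TERT KO/KO saline kidneys, and 14.4, 18.0 and 17.7 CPM in the TERT WT/WT ADR kidneys, against 9.49, 9.86, 9.32 and 8.75 CPM in TERT WT/WT saline kidneys. Its values in TERT KO/KO kidneys overlapped after ADR and saline, whereas in TERT WT/WT mice the ADR kidneys were all above the saline kidneys. Pik3ip1 had a difference of -1.02 (SE 0.19, adjusted p = 0.137 from edgeR). Ubald2, a protein with a ubiquitin-associated domain, differed by -0.78 (SE 0.15, adjusted p = 0.153 from edgeR), and the zinc finger gene Zfp39 by -1.29 (SE 0.22, adjusted p = 0.107 from edgeR).

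Immunoglobulin genes, made by plasma cells, had fitted differences far beyond those of most genes. Immunoglobulin RNA was summed over all 264 such genes in the file. It was at 17.3 and 24.5 CPM in TERT KO/KO ADR kidneys, against 18.7, 24.2 and 33.4 CPM in TERT KO/KO saline kidneys. It was at 132, 321 and 354 CPM in TERT WT/WT ADR kidneys, against 25.7, 49.8, 19.7 and 41.4 CPM in TERT WT/WT saline kidneys. All TERT WT/WT ADR kidneys, replicate 1 included, were above every other kidney, while TERT KO/KO ADR kidneys lay in or below the saline range. Of 44 such genes tested, of 264 in the file, 41 had a difference below 0, 16 were lower and 0 higher at an unadjusted p under 0.05, and 33 had both TERT KO/KO ADR responses below all TERT WT/WT ADR responses (15.8% of all genes did). Their median difference was -4.02, from median effects of -0.94 in TERT KO/KO and 2.44 in TERT WT/WT mice. A gene could pass the filter on low counts through the TERT WT/WT ADR kidneys alone. These counts and the median are thus a description only, and the share of all genes is no yardstick for them. Genes of this family share sequence and expand by clone, so counts of single members are uncertain and members are not independent.

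Igkc, the kappa constant region, had 4.83 and 3.33 CPM in the TERT KO/KO ADR kidneys, against 4.32, 9.14 and 11.2 CPM in TERT KO/KO saline kidneys, and 52.2, 121 and 97.0 CPM in the TERT WT/WT ADR kidneys, against 7.31, 16.3, 4.20 and 11.7 CPM in TERT WT/WT saline kidneys. Igha, the constant region of IgA, had 4.62 and 3.78 CPM in the TERT KO/KO ADR kidneys, against 3.76, 3.32 and 9.45 CPM in TERT KO/KO saline kidneys, and 45.2, 126 and 132 CPM in the TERT WT/WT ADR kidneys, against 4.99, 14.4, 4.74 and 5.23 CPM in TERT WT/WT saline kidneys. Jchain, which joins IgA and IgM and is a gene of its own outside the antibody loci, had 0.844 and 0.848 CPM in the TERT KO/KO ADR kidneys, against 0.770, 1.28 and 1.91 CPM in TERT KO/KO saline kidneys, and 6.18, 17.1 and 16.8 CPM in the TERT WT/WT ADR kidneys, against 1.498, 2.63, 0.752 and 1.83 CPM in TERT WT/WT saline kidneys. In all 3 genes the TERT WT/WT ADR kidneys stood above every other kidney. The ADR effect passed the test in TERT WT/WT mice (3.19, 3.78 and 2.99) and did not in TERT KO/KO mice (-1.004, -0.39 and -0.63). The differences were -4.20 (SE 0.74, adjusted p = 0.134 from edgeR), -4.17 (SE 0.82, adjusted p = 0.171 from edgeR) and -3.62 (SE 0.72, adjusted p = 0.171 from edgeR). The left-out TERT KO/KO ADR library had 32.8 CPM of immunoglobulin RNA in sum, which is also below all TERT WT/WT ADR kidneys, though with its share of liver RNA it is no kidney value. Among 29 genes of T, NK, B and plasma cells, 6 were lower and 1 higher at an unadjusted p under 0.05, with a median of -0.75 that ran from -1.95 without TERT KO/KO ADR replicate 3 to -0.12 without TERT KO/KO ADR replicate 1.

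Genes of red blood cells showed a like split. All 7 tested had a difference below 0, 5 of them at an unadjusted p under 0.05, and the median was -2.35, running from -2.76 without TERT KO/KO ADR replicate 1 to -1.56 without TERT KO/KO saline replicate 2. Hba-a2, an alpha globin gene, had 86.1 and 99.1 CPM in the TERT KO/KO ADR kidneys, against 71.1, 351 and 95.3 CPM in TERT KO/KO saline kidneys, and 263, 349 and 422 CPM in the TERT WT/WT ADR kidneys, against 100.4, 61.7, 126 and 71.6 CPM in TERT WT/WT saline kidneys. Alas2, the first enzyme of haem synthesis in red cells, had 19.6 and 11.001 CPM in the TERT KO/KO ADR kidneys, against 9.12, 34.7 and 12.1 CPM in TERT KO/KO saline kidneys, and 25.7, 59.9 and 73.4 CPM in the TERT WT/WT ADR kidneys, against 9.99, 8.41, 19.5 and 9.82 CPM in TERT WT/WT saline kidneys. TERT KO/KO saline replicate 2 was high in both genes and at the level of TERT WT/WT ADR kidneys, and the TERT KO/KO ADR kidneys lay within the range of the TERT KO/KO saline kidneys. The differences were -2.84 (SE 0.74, adjusted p = 0.277 from edgeR) and -2.43 (SE 0.78, adjusted p = 0.333 from edgeR), and for Hba-a1 and Hbb-bs they were -2.66 (SE 0.75, adjusted p = 0.292 from edgeR) and -2.35 (SE 0.69, adjusted p = 0.305 from edgeR). In TERT WT/WT mice the ADR effect passed for all 4 genes (1.91, 1.94, 1.81 and 2.15 for Hba-a1, Hba-a2, Hbb-bs and Alas2). Hba-a1 and Hba-a2 are near-identical copies, so their split of reads is uncertain. Blood left in the kidney was not measured, and its part in these values was not tested.

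**Figure D4:**
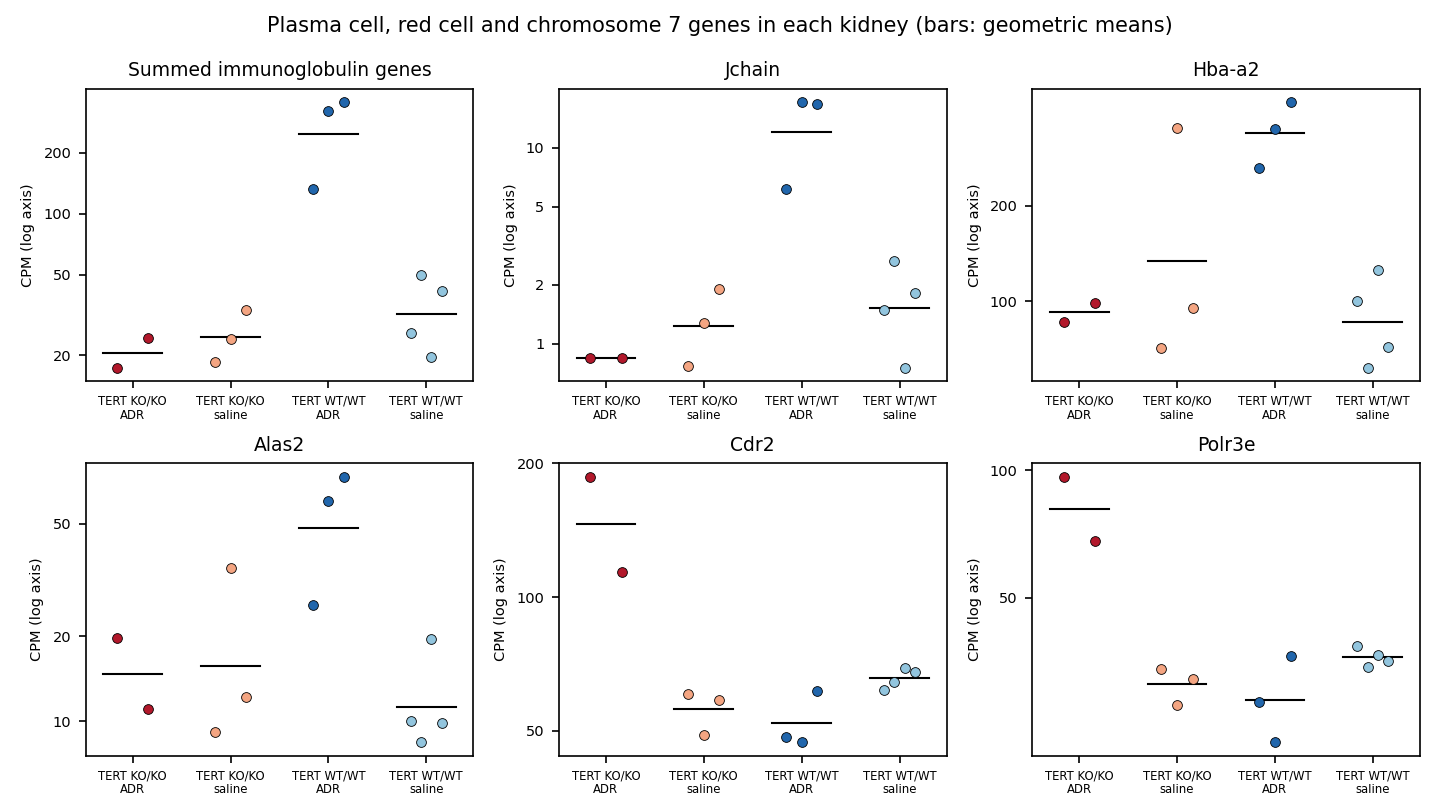
CPM on a log axis in each of the 12 kidneys for the sum of all 264 immunoglobulin genes in the file, the plasma cell gene Jchain, the red cell genes Hba-a2 and Alas2, and the neighbouring genes Cdr2 and Polr3e, with bars at geometric means. Summed immunoglobulin RNA was 132 to 354 CPM in the TERT WT/WT ADR kidneys and at most 49.8 CPM in all others, while Cdr2 and Polr3e were highest in the 2 TERT KO/KO ADR kidneys.

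Macrophage and inflammation lists had median differences below 0, which depended on which of the 2 TERT KO/KO ADR kidneys was in the fit. Macrophage and monocyte genes had a median difference of -0.80 over 31 genes, with 4 lower and 0 higher at an unadjusted p under 0.05. Without TERT KO/KO ADR replicate 1 the median was -0.29, and without replicate 3 it was -1.90. Cx3cr1, the fractalkine receptor of monocytes, had 7.01 and 18.4 CPM in the TERT KO/KO ADR kidneys, against 5.97, 6.90 and 7.33 CPM in TERT KO/KO saline kidneys, and 12.8, 44.5 and 43.0 CPM in the TERT WT/WT ADR kidneys, against 6.56, 6.76, 6.15 and 5.90 CPM in TERT WT/WT saline kidneys. TERT KO/KO ADR replicate 1 stayed at the saline level, whereas replicate 3 lay above TERT WT/WT ADR replicate 1. The difference of Cx3cr1 was -1.48 (SE 0.60, adjusted p = 0.378 from edgeR), and that of Fcgr4, an activating receptor for antibody, was -1.61 (SE 0.65, adjusted p = 0.372 from edgeR). Ctss, a protease that prepares antigen for MHC class II, had 10.6 and 50.1 CPM in TERT KO/KO ADR kidneys and 19.2, 68.5 and 59.0 CPM in TERT WT/WT ADR kidneys, a difference of -0.78 (SE 0.73, adjusted p = 0.661 from edgeR). H2-Ob, a regulator of peptide loading, differed by -1.25 (SE 0.88, adjusted p = 0.552 from edgeR). None of these 4 genes passed, and the MHC class II list had a median of -0.40 with 0 genes at an unadjusted p under 0.05. Its direction turned with the kidney, at 0.30 without TERT KO/KO ADR replicate 1 and -2.30 without replicate 3.

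Interferon-stimulated genes had a median difference of -0.43 over 39 genes, 4 of them lower and 0 higher at an unadjusted p under 0.05. This rested on the kidney left out, since the median was -0.04 without TERT KO/KO ADR replicate 1 and -1.60 without replicate 3. Rsad2 (viperin), an antiviral enzyme, had 13.7 and 18.6 CPM in the TERT KO/KO ADR kidneys, against 24.7, 30.4 and 23.3 CPM in TERT KO/KO saline kidneys, and 21.9, 25.6 and 22.7 CPM in the TERT WT/WT ADR kidneys, against 19.9, 21.1, 20.7 and 21.7 CPM in TERT WT/WT saline kidneys. Both TERT KO/KO ADR kidneys were below all others, and the difference was -0.86 (SE 0.20, adjusted p = 0.265 from edgeR). Irf7, a transcription factor that drives interferon genes, differed by -1.33 (SE 0.51, adjusted p = 0.36 from edgeR). Chemokine genes had a median of -0.65 over 30 genes (4 lower and 0 higher), though the median effects ran the other way, at 2.56 in TERT KO/KO and 1.64 in TERT WT/WT mice. Without TERT KO/KO ADR replicate 1 the chemokine median was -0.08, and without replicate 3 it was -1.83. The smallest p were those of Ccl3 at -2.17 (SE 0.78, adjusted p = 0.347 from edgeR) and Ccl27a at -1.23 (SE 0.45, adjusted p = 0.348 from edgeR). For the 22 complement genes the median was -0.16 (2 lower), and C2, a component of the classical pathway, was at 15.98 and 18.6 CPM in TERT KO/KO ADR kidneys, against 17.3 to 22.3 CPM in TERT KO/KO saline kidneys, and 19.8 to 26.2 CPM in TERT WT/WT ADR kidneys, against 12.6 to 16.1 CPM in TERT WT/WT saline kidneys. Its difference was -0.96 (SE 0.22, adjusted p = 0.265 from edgeR). Left-out kidneys moved the complement median, from -0.89 without TERT KO/KO ADR replicate 3 to 0.05 without TERT KO/KO ADR replicate 1. Genes under NF-kB had a median of -0.28, which ran from -0.85 without TERT KO/KO ADR replicate 3 to 0.03 without TERT KO/KO ADR replicate 1. The cytokine gene Il1b had 0.781 and 1.19 CPM in TERT KO/KO ADR kidneys and 1.79, 3.04 and 4.51 CPM in TERT WT/WT ADR kidneys, a difference of -1.85 (SE 0.50, adjusted p = 0.289 from edgeR). Cebpd, a factor of the acute-phase response, went the other way at 1.43 (SE 0.46, adjusted p = 0.33 from edgeR).

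The values of podocyte and tubule genes depended on TERT WT/WT ADR replicate 1. Podocyte genes had a median ADR effect of -0.45 in TERT KO/KO and -0.82 in TERT WT/WT mice, and 2 of 24 had a higher difference at an unadjusted p under 0.05. Nphs1 (nephrin), a protein of the slit diaphragm between podocyte processes, had 26.02 and 14.9 CPM in the TERT KO/KO ADR kidneys, against 32.2, 31.8 and 33.3 CPM in TERT KO/KO saline kidneys, and 30.6, 3.79 and 2.85 CPM in the TERT WT/WT ADR kidneys, against 38.1, 32.3, 29.0 and 32.0 CPM in TERT WT/WT saline kidneys. TERT WT/WT ADR replicates 2 and 3 lay far below all other kidneys, whereas TERT WT/WT ADR replicate 1 was within the saline range and TERT KO/KO ADR replicates 1 and 3 lay between. Its difference was 0.75 (SE 0.95, adjusted p = 0.755 from edgeR), with a 95% interval of -1.44 to 2.94. Without TERT WT/WT ADR replicate 1 it was 2.65 (adjusted p = 0.00258 from edgeR), and without TERT WT/WT ADR replicate 3 it was 0.27 (adjusted p = 0.887 from edgeR). The genes of the list with the smallest p were Mgat5, a glycosyltransferase, at 0.71 (SE 0.24, adjusted p = 0.338 from edgeR), and Plce1, a phospholipase mutated in nephrotic syndrome, at 0.55 (SE 0.22, adjusted p = 0.372 from edgeR). Without TERT WT/WT ADR replicate 1, 7 podocyte genes passed with a higher difference, among them Ddn, Mgat5, Nphs1, Podxl, Ptpro and Wt1. In that fit 1.11% of all genes passed with a higher difference.

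Proximal tubule genes had a median difference of 0.25 over 35 genes, and 0 were at an unadjusted p under 0.05. The median ran from -0.04 without TERT KO/KO ADR replicate 1 to 0.93 without TERT WT/WT ADR replicate 1. Hnf4a, the factor that maintains proximal tubule identity, had 746 and 505 CPM in the TERT KO/KO ADR kidneys, against 874, 676 and 770.4 CPM in TERT KO/KO saline kidneys, and 658, 317 and 353 CPM in the TERT WT/WT ADR kidneys, against 769.8, 909, 1002 and 938 CPM in TERT WT/WT saline kidneys. Its ADR responses overlapped between genotypes, with a difference of 0.72 (SE 0.38, adjusted p = 0.45 from edgeR), or 1.13 (adjusted p = 0.0438) without TERT WT/WT ADR replicate 1. The transporter gene Slc7a13 differed by 2.24 (SE 1.06, adjusted p = 0.424 from edgeR). Of 28 tubule injury genes, 17 were called higher with ADR in TERT KO/KO and 28 in TERT WT/WT mice, with median effects of 1.89 in TERT KO/KO and 2.20 in TERT WT/WT mice. Lcn2 (neutrophil gelatinase-associated lipocalin) had 211 and 316 CPM in the TERT KO/KO ADR kidneys, against 6.58, 15.8 and 12.4 CPM in TERT KO/KO saline kidneys, and 93.5, 782 and 944 CPM in the TERT WT/WT ADR kidneys, against 5.67, 8.07, 6.53 and 3.87 CPM in TERT WT/WT saline kidneys. All ADR kidneys were above all saline kidneys, and TERT KO/KO ADR kidneys lay between TERT WT/WT ADR replicate 1 and the other TERT WT/WT ADR kidneys. The difference was -2.14 (SE 0.92, adjusted p = 0.39 from edgeR), or -2.64 (adjusted p = 0.0219) without TERT WT/WT ADR replicate 1. Sox4, a factor of injured epithelium, differed by -1.19 (SE 0.49, adjusted p = 0.38 from edgeR), or -1.53 (adjusted p = 0.0284) without that kidney. Without it, 6 proximal tubule genes passed with a higher difference (G6pc, Hnf4a, Slc13a3, Slc16a9, Slc34a1 and Slc3a1) and 5 injury genes with a lower one (Clu, Krt18, Lcn2, Sox4 and Sox9). Over all genes of that fit, 1.11% passed with a higher and 0.606% with a lower difference.

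Lists on mesenchymal change, matrix and RAS signalling had median differences near 0 over the 12 kidneys, and left-out kidneys moved them. Over 32 mesenchymal and EMT genes the median difference was 0.04, with median effects of 0.80 in TERT KO/KO and 0.73 in TERT WT/WT mice, and 1 gene was higher and 1 lower at an unadjusted p under 0.05. Without TERT WT/WT ADR replicate 1 the median was -0.22 (8 lower and 2 higher), and without TERT KO/KO ADR replicate 3 it was -0.24. Of all 18974 genes in the fit without TERT WT/WT ADR replicate 1, 1839 were lower and 2183 higher at an unadjusted p under 0.05. The higher gene over the 12 kidneys was Ccn2 (CTGF), a matricellular protein, with 253 and 229 CPM in the TERT KO/KO ADR kidneys, against 61.9, 45.6 and 44.9 CPM in TERT KO/KO saline kidneys, and 47.8, 69.2 and 189 CPM in the TERT WT/WT ADR kidneys, against 56.7, 64.0, 68.4 and 76.3 CPM in TERT WT/WT saline kidneys. Both TERT KO/KO ADR kidneys were above all others, and the difference was 1.63 (SE 0.55, adjusted p = 0.338 from edgeR). Without TERT WT/WT ADR replicate 3, the highest TERT WT/WT kidney for this gene, it was 2.43 (adjusted p = 0.00777 from edgeR). Without TERT WT/WT ADR replicate 1 it was 1.28 (adjusted p = 0.126 from edgeR). Interstitial matrix genes had a median of -0.13 over 28 genes and 0 at an unadjusted p under 0.05, led by Mgp, matrix Gla protein, at -0.53 (SE 0.38, adjusted p = 0.554 from edgeR). Their median was -0.33 (5 lower and 1 higher) without TERT WT/WT ADR replicate 1, -0.51 without TERT KO/KO ADR replicate 3 and 0.13 without TERT KO/KO ADR replicate 1. Of 26 RAS and ERK feedback genes, 1 was higher and 1 lower at an unadjusted p under 0.05. They were Spry4 at 0.75 (SE 0.29, adjusted p = 0.358 from edgeR) and Spred3 at -1.26 (SE 0.51, adjusted p = 0.368 from edgeR), which both encode inhibitors of the pathway. Without TERT WT/WT ADR replicate 1 the median of the list was -0.24 (7 lower and 3 higher). Spred3 and Myc, a transcription factor of growth, then passed the adjusted test with a lower difference, as did 0.606% of all genes.

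Of 19 matrix metalloproteinase genes, 3 were called higher with ADR in TERT KO/KO and 11 in TERT WT/WT mice, with median effects of 0.99 in TERT KO/KO and 1.43 in TERT WT/WT mice, and 2 had a lower difference at an unadjusted p under 0.05. Mmp11 (stromelysin-3) had 5.87 and 8.75 CPM in the TERT KO/KO ADR kidneys, against 12.5, 13.5 and 12.99 CPM in TERT KO/KO saline kidneys, and 9.87, 17.4 and 14.5 CPM in the TERT WT/WT ADR kidneys, against 13.3, 12.4, 9.67 and 10.2 CPM in TERT WT/WT saline kidneys. Its TERT KO/KO ADR kidneys were below all others, and the difference was -1.12 (SE 0.31, adjusted p = 0.289 from edgeR). Mmp3 (stromelysin-1) had 0.317 and 0.501 CPM in the TERT KO/KO ADR kidneys, against 0.233, 0.142 and 0.249 CPM in TERT KO/KO saline kidneys, and 0.501, 1.45 and 2.36 CPM in the TERT WT/WT ADR kidneys, against 0.0454, 0.149, 0.111 and 0.261 CPM in TERT WT/WT saline kidneys. Its TERT WT/WT ADR replicates 2 and 3 were above all other kidneys, and the difference was -2.39 (SE 0.90, adjusted p = 0.354 from edgeR). Mmp12 (macrophage elastase) had 2.51 and 25.2 CPM in the TERT KO/KO ADR kidneys, against 1.75, 1.16 and 2.76 CPM in TERT KO/KO saline kidneys, and 2.72, 16.4 and 8.73 CPM in the TERT WT/WT ADR kidneys, against 1.91, 1.74, 1.88 and 1.46 CPM in TERT WT/WT saline kidneys. TERT KO/KO ADR replicate 1 and TERT WT/WT ADR replicate 1 stayed near the saline level, and TERT KO/KO ADR replicate 3 had the highest value of all. The difference of Mmp12 was 0.46 (SE 1.05, adjusted p = 0.878 from edgeR) with a 95% interval of -1.95 to 2.88, and it was -1.996 without that kidney. Mmp10 (stromelysin-2) had 0.591 and 0.809 CPM in TERT KO/KO ADR kidneys, against 0 to 0.0284 CPM in TERT KO/KO saline kidneys, and 0.501, 0.589 and 0.559 CPM in TERT WT/WT ADR kidneys, against 0 CPM in all TERT WT/WT saline kidneys. The 2 levels of TERT KO/KO ADR kidneys lay above the highest TERT WT/WT ADR level, that of replicate 1 narrowly, and no fold is given because the saline kidneys had at most 1 count each. Mmp24 (MT5-MMP) had 0.0633 and 0.809 CPM in TERT KO/KO ADR kidneys and 0.167, 1.02 and 1.36 CPM in TERT WT/WT ADR kidneys, a difference of -0.64 (SE 1.51, adjusted p = 0.885 from edgeR).

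Proliferation genes had median differences near 0 over the 12 kidneys, of a sign that turned with single kidneys. Mitosis and G2/M genes had a median effect of 2.97 in TERT KO/KO and 3.13 in TERT WT/WT mice and a median difference of -0.08 over 38 genes. That median was 0.40 without TERT KO/KO ADR replicate 1, -0.73 without TERT KO/KO ADR replicate 3, -0.36 without TERT WT/WT ADR replicate 1 and 0.28 without TERT WT/WT ADR replicate 2. Mybl2, an activator of cell cycle genes, differed by -1.03 (SE 0.46, adjusted p = 0.404 from edgeR) and the mitotic kinase Plk1 by -1.06 (SE 0.63, adjusted p = 0.488 from edgeR). For the 36 S-phase genes the median was 0.10, and it ran from -0.12 without TERT KO/KO ADR replicate 3 to 0.25 without TERT KO/KO ADR replicate 1. Mcm5, a subunit of the replicative helicase, rose in both genotypes and differed by 0.53 (SE 0.19, adjusted p = 0.347 from edgeR). Among 32 p53 target genes, 3 were higher and 1 lower at an unadjusted p under 0.05. Plk3, a stress-induced kinase, rose in both genotypes, with 69.9 and 43.1 CPM in TERT KO/KO ADR kidneys, against 8.43 to 13.2 CPM in TERT KO/KO saline kidneys, and 11.3, 15.9 and 27.6 CPM in TERT WT/WT ADR kidneys, against 8.39 to 9.76 CPM in TERT WT/WT saline kidneys. Its difference was 1.5001 (SE 0.42, adjusted p = 0.289 from edgeR), and that of Aen, a nuclease of apoptosis, was 0.85 (SE 0.27, adjusted p = 0.332 from edgeR). Of 19 telomerase and shelterin genes, 1 was higher at an unadjusted p under 0.05. It was Dclre1b (Apollo), a nuclease of telomere ends, with 12.3 and 14.03 CPM in the TERT KO/KO ADR kidneys, against 6.95, 6.78 and 6.39 CPM in TERT KO/KO saline kidneys, and 5.49, 6.37 and 9.41 CPM in the TERT WT/WT ADR kidneys, against 6.92, 7.65, 7.17 and 7.45 CPM in TERT WT/WT saline kidneys. Both TERT KO/KO ADR kidneys were above all others, and the difference was 1.01 (SE 0.26, adjusted p = 0.265 from edgeR). Terf2ip (Rap1), the next of the list, differed by 0.42 (SE 0.22, adjusted p = 0.45 from edgeR). None of the 17 genes for doxorubicin efflux, reduction and targets was at an unadjusted p under 0.05.

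Fatty acid oxidation genes had a median response above 0 in both TERT KO/KO ADR kidneys and below 0 in all TERT WT/WT ADR kidneys. Of 34 fatty acid oxidation and PPAR genes, 7 were higher and 0 lower at an unadjusted p under 0.05, and 13 had both TERT KO/KO responses above all TERT WT/WT responses (17.4% of all genes did). The list's median response was 0.12 and 0.15 in TERT KO/KO ADR replicates 1 and 3, and -0.07, -0.30 and -0.35 in TERT WT/WT ADR replicates 1, 2 and 3. Its median difference of 0.21 ran from 0.15 without TERT KO/KO saline replicate 2 to 0.32 without TERT WT/WT ADR replicate 1. Cyp4a14, a fatty acid omega-hydroxylase induced by PPAR alpha, had 818 and 652 CPM in the TERT KO/KO ADR kidneys, against 554, 439 and 571 CPM in TERT KO/KO saline kidneys, and 478, 262 and 311 CPM in the TERT WT/WT ADR kidneys, against 623, 598, 647 and 543 CPM in TERT WT/WT saline kidneys. All TERT WT/WT ADR kidneys were below the TERT WT/WT saline kidneys, and both TERT KO/KO ADR kidneys were above every saline kidney. The difference of Cyp4a14 was 1.28 (SE 0.31, adjusted p = 0.265 from edgeR), or 1.57 (adjusted p = 0.0123) without TERT WT/WT ADR replicate 1, and that of Cyp4a31, of the same family, was 1.01 (SE 0.24, adjusted p = 0.265 from edgeR). Reads can be shared between close Cyp4a copies. Sterol and fatty acid synthesis genes had a median of 0.23, and 27 of 29 were above 0, 4 of them at an unadjusted p under 0.05. Their median ADR effects were both below 0, at -0.35 in TERT KO/KO and -0.70 in TERT WT/WT mice, and the saline kidneys differed by a median of -0.28 (TERT KO/KO over TERT WT/WT). Hsd17b7 and Msmo1, enzymes of cholesterol synthesis, differed by 1.15 (SE 0.31, adjusted p = 0.283 from edgeR) and 0.43 (SE 0.14, adjusted p = 0.338 from edgeR). After ADR, Msmo1 was at 23.3 and 22.6 CPM in TERT KO/KO kidneys and 22.8, 25.0 and 24.6 CPM in TERT WT/WT kidneys, so that the groups differed mainly after saline, at 29.0, 24.5 and 29.9 CPM in TERT KO/KO kidneys and 38.1, 41.6, 38.3 and 39.2 CPM in TERT WT/WT kidneys.

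All 13 mitochondrially encoded genes had a difference below 0, with a median of -0.81 that ran from -1.16 without TERT WT/WT ADR replicate 3 to -0.49 without TERT WT/WT ADR replicate 1, and 2 were at an unadjusted p under 0.05. Their median response was -1.06 and -1.08 in TERT KO/KO ADR replicates 1 and 3, and 0.32, -0.03 and -1.28 in TERT WT/WT ADR replicates 1, 2 and 3, so that TERT WT/WT ADR replicate 3 lay as low as the TERT KO/KO ADR kidneys. In these genes the saline kidneys differed by a median of 0.57 (TERT KO/KO over TERT WT/WT). Part of the difference thus lay between the saline groups. The 13 genes share transcripts, so they are not independent. mt-Nd6, a subunit of complex I encoded on the light strand, had 10.3 and 7.63 CPM in the TERT KO/KO ADR kidneys, against 23.1, 30.4 and 14.04 CPM in TERT KO/KO saline kidneys, and 12.9, 13.4 and 10.9 CPM in the TERT WT/WT ADR kidneys, against 11.2, 10.0, 6.57 and 9.98 CPM in TERT WT/WT saline kidneys. All 3 TERT KO/KO saline kidneys were above every other kidney, and the difference was -1.72 (SE 0.38, adjusted p = 0.246 from edgeR). mt-Nd3, another subunit of complex I, differed by -1.62 (SE 0.66, adjusted p = 0.376 from edgeR). Nuclear genes of the respiratory chain had a median of 0.06 over 35 genes and 0 at an unadjusted p under 0.05, and the sign turned, from -0.23 without TERT KO/KO ADR replicate 1 to 0.35 without TERT WT/WT ADR replicate 1. MYC and ribosome biogenesis genes had 6 higher and 0 lower of 28, with a median of 0.16. Rrp12, a ribosome assembly factor, rose with ADR in TERT KO/KO mice, to 12.3 and 13.2 CPM, against 5.02 to 7.35 CPM in TERT KO/KO saline kidneys, and had 6.18 to 9.27 CPM in TERT WT/WT ADR kidneys, against 7.83 to 11.3 CPM in TERT WT/WT saline kidneys. The difference of Rrp12 was 1.35 (SE 0.28, adjusted p = 0.196 from edgeR).

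Thick limb and distal tubule genes had 4 higher and 0 lower of 20. Their median difference was 0.24, and the saline kidneys differed by a median of -0.31 (TERT KO/KO over TERT WT/WT). Egf, the growth factor made by the distal nephron, had 545 and 612 CPM in the TERT KO/KO ADR kidneys, against 756, 524 and 730.1 CPM in TERT KO/KO saline kidneys, and 522, 232 and 340.2 CPM in the TERT WT/WT ADR kidneys, against 766, 932, 1289 and 1225 CPM in TERT WT/WT saline kidneys. It fell with ADR in TERT WT/WT mice, while TERT KO/KO ADR kidneys lay within the TERT KO/KO saline range, and the difference was 1.32 (SE 0.41, adjusted p = 0.322 from edgeR). Slc12a1, the salt transporter of the thick limb, differed by 0.99 (SE 0.30, adjusted p = 0.311 from edgeR). It had 635 and 966 CPM in TERT KO/KO ADR kidneys, against 577, 490 and 522 CPM in TERT KO/KO saline kidneys. In TERT WT/WT mice it had 572, 542 and 778 CPM after ADR, against 694, 746, 981 and 895 CPM after saline. For Egf and Slc12a1, all TERT KO/KO saline kidneys were thus below all TERT WT/WT saline kidneys. Of 15 EGF receptor genes and ligands, 4 were higher and 1 lower. Errfi1 (MIG6), an inhibitor of the EGF receptor, had 399 and 349.5 CPM in the TERT KO/KO ADR kidneys, against 273, 198 and 264 CPM in TERT KO/KO saline kidneys, and 199, 161 and 239 CPM in the TERT WT/WT ADR kidneys, against 237, 259, 347 and 308 CPM in TERT WT/WT saline kidneys. Both TERT KO/KO ADR kidneys were above all others, and the difference was 1.14 (SE 0.28, adjusted p = 0.265 from edgeR). Of 27 unfolded protein response genes, 3 were higher and 3 lower. Atf4, the factor that drives amino acid and stress genes, was called higher with ADR in TERT KO/KO mice and differed by 0.66 (SE 0.16, adjusted p = 0.265 from edgeR). Among 24 acute-phase genes 1 was lower, with a median of -0.47. The lists of glomerular basement membrane, parietal cell, collecting duct, fibroblast, senescence, neutrophil, TGF-beta, Wnt, Notch, hedgehog, glycolysis, antioxidant, endothelial and integrin genes had medians from -0.42 to 0.13, each with at most 3 genes in either direction. Left-out kidneys moved these medians most for neutrophil genes, from -1.25 without TERT KO/KO ADR replicate 1 to 0.63 without TERT KO/KO ADR replicate 3. All counts are at an unadjusted p under 0.05.

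Markers of other tissues were at low levels. Hepatocyte genes had a median difference of -0.75 (from -1.94 without TERT KO/KO ADR replicate 1 to 0.09 without TERT KO/KO saline replicate 1) over 17 genes, 2 of them at an unadjusted p under 0.05, led by Ttr (transthyretin) at -1.95 (SE 0.54, adjusted p = 0.289 from edgeR), and Alb, their defining marker, had 158 to 3760 counts per kidney. Adipocyte genes had a median of 0.54 over 8 genes, with Adipoq at 1 to 22 counts. Their part in the metabolic and immune values was not tested. The 4 skeletal muscle genes had a median of 0.03 and the 4 adrenal genes -0.46, each with 0 genes at an unadjusted p under 0.05.

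The direct comparison of genotypes after ADR called 14 genes (0.0736% of those tested, with 9 or 0.0473% higher and 5 or 0.0263% lower), and 1458 (7.66%) had an unadjusted p under 0.05. It shares the ADR kidneys with the difference, and so is not separate evidence. Among those higher in TERT KO/KO ADR than in TERT WT/WT ADR kidneys were Cdr2 at 1.52 (adjusted p = 0.0234), Polr3e at 1.499 (adjusted p = 0.0234), Sgk1 at 1.94 (adjusted p = 0.0362), Cry1 at 1.87 (adjusted p = 0.0468), Nfil3 at 1.51 (adjusted p = 0.0362) and Dcun1d3 at 0.80 (adjusted p = 0.0362), all from edgeR. Also called higher, Foxo1, a FoxO factor, was at 91.5 and 85.7 CPM in TERT KO/KO ADR kidneys and 61.2, 50.5 and 52.8 CPM in TERT WT/WT ADR kidneys. Esr1, oestrogen receptor alpha, was at 8.17 and 8.21 CPM in TERT KO/KO ADR kidneys and 3.70, 3.72 and 2.92 CPM in TERT WT/WT ADR kidneys, and its ADR effect was 0.06 in TERT KO/KO and -0.83 in TERT WT/WT mice. The lower genes were Nr1d1 at -1.51 (adjusted p = 0.0234), Igkc at -4.47 (adjusted p = 0.0362), Igha at -4.59 (adjusted p = 0.0478), Jchain at -3.98 (adjusted p = 0.0362) and Iglc1, a lambda constant region. Iglc1 had only 2 and 3 counts in TERT KO/KO ADR kidneys, against 111, 43 and 274 counts in TERT WT/WT ADR kidneys. The calls, though not the signs, depended on single kidneys. Of the 14, 0 were called when replicate 1 of the TERT KO/KO ADR group, replicate 1 or 3 of the TERT KO/KO saline group, or replicate 1 of the TERT WT/WT saline group was left out, whereas 782 genes, the 14 among them, were called without TERT WT/WT ADR replicate 1. All 14 kept their sign in each of these fits, with a log2 difference of -4.76 to -4.20 for Igkc, -4.32 to -3.76 for Jchain, -1.64 to -1.29 for Nr1d1, 1.12 to 1.84 for Cdr2 and 1.14 to 1.31 for Esr1. After saline 1 gene was called (0.00526%), and 1672 (8.79%) had an unadjusted p under 0.05. It was Glrx (glutaredoxin), on chromosome 13 as Tert is, with 10.8, 10.6 and 11.4 CPM in TERT KO/KO saline kidneys and 25.3, 30.0, 28.9 and 27.9 CPM in TERT WT/WT saline kidneys. Its genotype difference in the ADR effect was 0.75 (SE 0.24, adjusted p = 0.328 from edgeR), with 25.6 and 14.6 CPM in TERT KO/KO ADR kidneys and 28.2, 32.4 and 31.2 CPM in TERT WT/WT ADR kidneys.

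**Figure D5:**
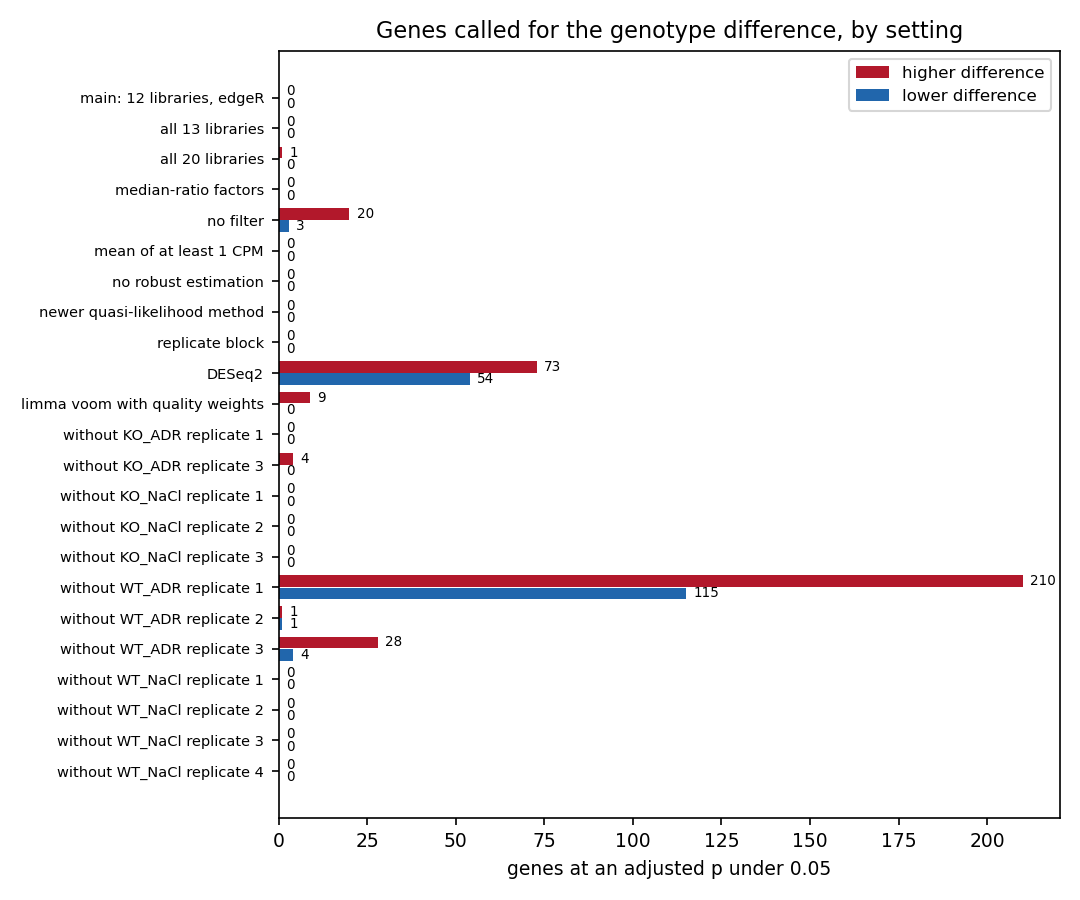
Genes at an adjusted p under 0.05 for the genotype difference in the ADR effect under each setting, with bars for higher and lower differences. The 12 libraries with edgeR gave 0, and the count reached 210 higher and 115 lower without TERT WT/WT ADR replicate 1.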

How the data were processed

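RNA of whole kidneys was sequenced from both ends. Per the study's methods, reads were checked with FastQC, trimmed with Trimmomatic and aligned with STAR to mm10. What the authors deposited are whole-number counts of reads per gene, not normalized. The counting tool, annotation and strand setting are not given in the sources used here. Gene symbols came from GENCODE M21, which lacked 327 of the 55471 identifiers.

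Counts of the 12 libraries were fitted with edgeR 4.0.16 in R 4.3.3, with filterByExpr, TMM factors, 1 coefficient per group and the robust quasi-likelihood F test, which left 8 residual degrees of freedom before moderation. The Benjamini-Hochberg adjustment ran over 19023 genes, with calls at an adjusted p of 0.05. CPM use TMM factors, except those of Alb and of summed immunoglobulin genes, which use total counts. The 95% intervals use those 8 degrees of freedom. Responses of single kidneys are log2 CPM (prior count of 2) minus the mean of saline kidneys of the genotype. Each library is 1 mouse. The test was tried on simulated counts.

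Named genes are the 6 with the smallest p in each direction (mean of at least 1 CPM), the leading 1 or 2 of each list, genes of opposite ADR calls, and 4 metalloproteinases that the study names. Per1, Per2, Dbp, Bhlhe41, Fkbp5, Tsc22d3, Noct, Hbb-bs, Alas2, Nphs1, Glrx, Esr1, Foxo1, Igha and Iglc1 were chosen after their values were seen. Some genes that the rule picks are not reported here. The members and the 50 lists were chosen with earlier results of these data known. Alternatives were all 13 or all 20 libraries, median-ratio factors, no filter or a mean of 1 CPM, DESeq2 1.42.0, limma 3.58.1 voom with quality weights, non-robust and newer quasi-likelihood fits, a replicate block, and each library left out.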

Additional observations from a re-analysis of the deposited data

Results flagged for a closer look

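In the TERT WT/WT saline group, 1 of the 4 kidneys stood apart from the others in 7 of 82 genes named in the text and tested for it, where chance gives about 1 in 20. The kidney was replicate 1 for Ubald2 (35.9 CPM) and Rnf169 (21.5 CPM), and replicate 2 for Igha (14.4 CPM) and Plk3 (8.39 CPM). It was replicate 3 for Alas2 (19.5 CPM), Nr4a3 (0.620 CPM) and Klf10 (15.9 CPM). Fatty acid oxidation and PPAR genes had a median difference of 0.21. The median response of both TERT KO/KO ADR kidneys was above 0 and that of all 3 TERT WT/WT ADR kidneys below 0. This difference between genotypes was not tested for the list. Alb took 26.1% of the counts in the TERT KO/KO ADR library that was left out.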

How the results depend on the processing

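The main limit was the number of kidneys, with 2 in the TERT KO/KO ADR group. Over 82 named genes and 22 alternatives, 1665 values kept their direction and stayed short of the threshold, 115 kept it and passed, and 17 changed sign, in 4 genes. The causes were not tested.

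For the genotype difference, where edgeR called 0 genes, no filter gave 20 higher and 3 lower, DESeq2 73 higher and 54 lower, voom with quality weights 9 higher, and all 20 libraries 1 higher. Leaving out single libraries gave 0 to 210 higher and 0 to 115 lower. The ADR effect in TERT KO/KO mice (729 higher, 272 lower) became 244 higher and 51 lower with all 13 libraries and 1325 higher and 822 lower with DESeq2, with 537 lower in voom and, without single libraries, 154 to 1950 higher and 23 to 1443 lower. For TERT WT/WT mice, the effect of ADR (2883 higher, 2281 lower) became 759 and 135 with all 13 libraries, 912 and 285 with all 20, 4796 and 4452 in voom, and 1309 to 4046 higher and 399 to 3764 lower without single libraries. The genotype comparison after ADR (9 higher, 5 lower) gave 0 and 0 with all 13 libraries, 4 and 1 with all 20, 32 and 9 with no filter, 68 and 59 with DESeq2, 3 and 1 in voom, and 0 to 463 higher and 0 to 319 lower without single libraries. The comparison after saline (0 higher, 1 lower) gave 3 and 3 with no filter, 10 and 11 with DESeq2, 1024 and 1219 in voom, 0 lower with all 13 libraries or a mean of 1 CPM, and 0 to 1 higher and 0 to 2 lower without single libraries.

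Replicate numbers were not used as pairs in the main fit. Same-numbered kidneys had correlations of -0.34 to 0.36 over 15 pairs (median 0.07, 7 over 0.1). Other pairs had -0.36 to 0.33 over 38 pairs (median -0.02, 7 over 0.1). Deviations of the 2 TERT KO/KO ADR kidneys mirror each other, so pairs are not independent, and these values do not settle whether numbers pair kidneys. With the replicate block, the genotype difference stayed at 0 calls, the ADR effect in TERT KO/KO mice had 179 lower, the comparison after ADR had 1 higher and 0 lower, that after saline 1 higher and 0 lower, and Tert stood at -0.00396.

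The sign of Tert also changed with all 13 libraries (-0.54), all 20 (-0.53), a mean of 1 CPM (-0.0228) and the newer quasi-likelihood method (-0.000165), and ranged from -0.67 to 0.47 without single libraries. Ttr, which the liver makes, stood at 6.16 with all 13 and 6.14 with all 20 libraries, both of which hold the liver-like library. Mmp12 was -0.82 in voom and ranged from -1.996 to 1.31 and Mmp24, with at most 6 counts in a saline kidney, from -3.38 to 0.23. Mmp10 has no fold and was left out.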
